A study of Mus musculus with 6 samples.

Results

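Macrophages of the aortic valve were followed through 9 genes, taken from the 23107 genes listed in the count table. The 9 were Csf1r, Cd68, Lyz2, Mrc1, Cd163, F13a1 and the C1q genes C1qa, C1qb and C1qc. Whether these genes mark resident macrophages or myeloid cells at large was not tested. They were chosen by their fold changes, since macrophage markers had been read higher in the mutant valves of these same libraries, so the contrast of mutants with controls describes them and is no test of them. A count minimum of 10 in 3 or more libraries left 15354 genes to test, all 9 among them, and none was at 0 in any library.

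The study compared aortic valves of mutant and control mice to ask what continuous signaling by the BMP type I receptor Acvr1 does to valve tissue. Mutants (caAcvr1:Nfatc1Cre) carried a Cre-activatable, constitutively active Acvr1 transgene together with Cre knocked into the Nfatc1 locus, which recombines in endocardium, its derivatives and cells where leaflet meets wall. Controls are labelled wild type, while the methods count as controls mice that lack the transgene, Cre or both, and which of these were sequenced is not stated. All mice were 4 months old and of an outbred strain, with 3 control and 3 mutant libraries. Recombination in macrophages was not measured in these libraries. Neither the number of mice in a library nor any pooling is given. It is therefore not known whether the spread between replicates is that between mice, between pools or partly technical.

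Tissue macrophages are phagocytes that live in the valve leaflets, where they clear cell debris and take part in turning over the matrix. They depend on the receptor Csf1r for survival, and the resident kind carries scavenger receptors such as Mrc1 and Cd163. C1q, made largely by macrophages in most tissues, is the recognition unit of the classical complement pathway and is assembled from A, B and C chains encoded by neighbouring genes.

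Lyz2, Cd68 and all 3 C1q chains were read higher in every mutant valve than in every control valve, with mean levels 1.26 to 1.38 times those of the controls. Csf1r, Mrc1 and Cd163 had higher means in the mutants with overlapping groups, and F13a1 had a mean 0.953 times that of the controls. The C1q chains kept nearly fixed proportions in all 6 libraries. The groups overlapped for the proteases and later components of the classical pathway, among which C2 and C3 had every mutant above every control once control replicate 2 was left out.

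Library totals ran from 32218345 to 55728852 assigned fragments, and 3 counts, the limit that a count of 0 allows, came to between 0.0559 and 0.0941 CPM (counts scaled to one library total with TMM factors), for counting error only. Control replicate 2 stood apart by its neighbouring tissue, with 12314 CPM over 10 cardiac muscle markers against 18427 to 40259 CPM in the other libraries, and 14372 CPM over 8 smooth muscle markers against 3883 to 7904 CPM. Transcripts of Y-linked genes summed to 0.671 and 0.559 CPM in control replicate 1 and mutant replicate 1 and to between 138 and 183 CPM in the other 4 libraries. Mutant replicates 2 and 3 also held Xist, at 19.6 and 11.7 CPM, beside 0.296 and 0.630 CPM in control replicates 2 and 3, while the labels give no sex. Whether tissue of both sexes was pooled in these mutant libraries was not tested. Interstitial cell genes were read throughout, with 8 of them summing to between 13273 and 17156 CPM. How much of this came from the valve itself was not tested. Between mutants and controls, 0 of 15354 genes passed an adjusted p of 0.05 in edgeR or in limma-voom, 529 passed at an unadjusted p, and DESeq2 called 26.

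The label was checked against other macrophage genes. Emr1 (Adgre1), which encodes the F4/80 antigen, was read at 30.9 to 41.8 CPM, and Folr2, Lyve1 and Cbr2, genes of resident macrophages in heart and vessel wall, were present in every library. All 17 genes of a list of resident macrophage markers passed the count minimum. All 12 genes of the monocyte list and all 10 cardiac muscle markers passed it too, so passing does not check the label. Per transcript length, Folr2 averaged 71.7 TPM (a level scaled for transcript length and library total) over the 6 libraries, Emr1 27.8 TPM and Timd4 9.80 TPM. Of the 12 genes of the monocyte list, Ccr2 and Ly6c2 averaged 3.20 and 0.80 TPM, and Fn1, S100a4 and Ace, which other cells of the valve also make, 238, 127 and 102 TPM, so levels in bulk tissue do not tell the kinds apart. Lyve1 is not specific to macrophages, since lymphatic endothelium also makes it.

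Start-site windows from RefSeq (GRCm38.p6) were found for 7 of the 9 genes, all except Csf1r and C1qa. The 5 stretches below are shown because C1qb and C1qc lie side by side and were counted in nearly fixed proportion, Lyz2 and Cd68 had their groups apart as the C1q genes did, and F13a1 did not. Each is written 5′ to 3′ on the strand of its gene and holds only bases before the annotated starts of both RefSeq and GENCODE. Capitals mark GAGGAA, one form of the ETS site, on either strand (TTCCTC on the opposite one) or, in Cd68, also a C/EBP site.
C1qb, chr4:136886201-136886450, minus strand: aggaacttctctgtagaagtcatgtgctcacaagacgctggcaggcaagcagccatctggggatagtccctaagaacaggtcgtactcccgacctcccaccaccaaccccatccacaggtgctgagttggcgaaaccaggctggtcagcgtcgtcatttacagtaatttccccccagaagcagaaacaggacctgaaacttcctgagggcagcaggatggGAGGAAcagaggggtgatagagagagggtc
C1qc, chr4:136893066-136893164, minus strand: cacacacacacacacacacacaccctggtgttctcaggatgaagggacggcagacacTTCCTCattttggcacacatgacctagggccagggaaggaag
Lyz2, chr10:117282322-117282522, minus strand: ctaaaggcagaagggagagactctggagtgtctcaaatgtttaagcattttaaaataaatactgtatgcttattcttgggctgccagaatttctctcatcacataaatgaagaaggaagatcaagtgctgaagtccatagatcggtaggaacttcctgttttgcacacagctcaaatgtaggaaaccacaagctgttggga
Cd68, chr11:69666171-69666420, minus strand: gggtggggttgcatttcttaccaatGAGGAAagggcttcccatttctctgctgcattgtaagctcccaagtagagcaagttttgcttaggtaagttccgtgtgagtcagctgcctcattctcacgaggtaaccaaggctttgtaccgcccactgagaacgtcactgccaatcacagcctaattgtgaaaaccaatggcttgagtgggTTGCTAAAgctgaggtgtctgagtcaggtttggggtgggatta
F13a1, chr13:37050245-37050494, minus strand: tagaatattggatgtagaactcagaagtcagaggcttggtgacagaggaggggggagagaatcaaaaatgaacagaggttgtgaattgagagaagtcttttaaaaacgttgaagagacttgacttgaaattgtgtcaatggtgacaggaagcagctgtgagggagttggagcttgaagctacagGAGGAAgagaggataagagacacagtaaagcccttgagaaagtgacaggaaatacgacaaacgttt
GAGGAA was searched on both strands from 250 bases before to 50 bases after each start. It occurred in the windows of Cd68, Mrc1, F13a1, C1qb and C1qc, and in 28.3% of all 32851 windows. Counted from the start, it lay in C1qb from -30 to -25, in C1qc from -193 to -188, in Cd68 from -225 to -220 and from 30 to 35, and in Mrc1 at 3 places, from -180 to -30. F13a1 had 2 windows, the first with matches from -66 to -61 and from 18 to 23 and the second with one from 15 to 20. No match of GAGGAA was found in Lyz2 or Cd163, while shorter or other forms of the ETS site were not searched. The C/EBP site TTNNGCAA occurred in Cd68 alone of the 7, from -43 to -36, and in 10.8% of all windows. The Maf site core TGCTGAC, present in 4.67% of all windows, was in none of the 7. A match of letters is a description and says nothing of binding.

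The receptor Csf1r binds the growth factors Csf1 and Il34, and lies on chromosome 18 of GRCm38 from 61100598 to 61132149, with 21 exons in its longest transcript. It was read at 142, 130 and 140 CPM in control replicates 1, 2 and 3, and at 141, 169 and 142 CPM in mutant replicates 1, 2 and 3. Mutant replicate 2 was highest, mutant replicate 1 lay within the range of the controls, and mutant replicate 3 was level with control replicate 1, the highest of them. The means were 137 ± 6.42 CPM (SD, n = 3) in controls and 151 ± 16.0 CPM (SD, n = 3) in mutants, for which the fitted log2 fold change was 0.14 with a standard error of 0.11. Without mutant replicate 2 it was 0.04. The 3′ end of Csf1r overlaps Hmgxb3 on the opposite strand, which had 933 to 2016 counts, and the library kit does not mark strand, so reads of the pair cannot be told apart there.

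Its ligand Csf1, made by stromal cells and endothelium, was read at 164, 180 and 159 CPM in controls and 169, 184 and 164 CPM in mutants. Il34 was low, at 5.16, 2.98 and 3.76 CPM against 2.41, 4.50 and 3.48 CPM. Both ligands overlapped between groups. The log2 fold change was 0.04 for Csf1, with a standard error of 0.10, and -0.20 for Il34, with one of 0.33. Per length, Csf1 exceeded Il34 by 13.7 to 30.2 times in the 6 libraries. Of the 9 genes of the Csf1r axis that were tested, which include the transcription factors Maf, Irf8, Cebpa and Runx1 and the adaptor Tyrobp, 0 passed the edgeR test in either direction, none reached an unadjusted p under 0.05 and DESeq2 called 0. The median log2 fold change of the list was -0.16 beside 0.01 over all genes tested, and its sign rests on single libraries, since it was -0.24 without control replicate 3, 0.04 without control replicate 1 and 0.01 without mutant replicate 1. That of Maf was 0.33 with a standard error of 0.20.

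Lyz2 encodes lysozyme M, an enzyme that cleaves bacterial cell walls, and lies on chromosome 10 from 117277331 to 117282321. It was read at 796, 725 and 747 CPM in controls and 993, 1080 and 1057 CPM in mutants. Every mutant lay above every control. The mean was 756 ± 36.3 CPM (SD, n = 3) in controls and 1043 ± 45.2 CPM (SD, n = 3) in mutants, and the fitted log2 fold change was 0.46 with a standard error of 0.15. Fits that lacked a single library gave 0.44 to 0.50. The near copy Lyz1 next to it, with 4401 to 6538 counts, was read at 98.3 ± 3.07 CPM (SD, n = 3) and 140 ± 27.7 CPM (SD, n = 3), and the assignment of shared reads between the pair is uncertain.

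Cd68 encodes a heavily glycosylated protein of the lysosomal membrane and lies on chromosome 11 from 69664213 to 69666153. Control replicates 1, 2 and 3 gave 23.5, 22.8 and 26.2 CPM, and the mutants gave 29.2, 34.6 and 32.0 CPM. All mutants were above all controls, with mutant replicate 2 highest. The log2 fold change was 0.40 (standard error 0.12). It was lowest, at 0.34, when mutant replicate 2 was left out and highest, at 0.46, when mutant replicate 1 was.

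Other lysosomal genes were spread around no difference. Of 13 tested, 9 had positive and 4 negative fold changes, with a median of 0.07 (0.04 without control replicate 2 and 0.12 without control replicate 1). None passed the edgeR test, 1 (Npc2, which carries cholesterol out of lysosomes) had an unadjusted p under 0.05 and DESeq2 called 0. Npc2 was read at 154, 170 and 159 CPM in controls and 183, 209 and 202 CPM in mutants. Psap, the precursor of the saposins that help digest sphingolipids, was read at 877, 798 and 923 CPM against 1093, 1056 and 1102 CPM. These were the only 2 of the 13 with every mutant above every control. Lamp1, Ctsd and Grn had log2 fold changes of 0.01, 0.04 and -0.01.

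Mrc1, the mannose receptor, takes up glycoproteins, and lies on chromosome 2 from 14229392 to 14332057. It was read at 49.8, 44.6 and 39.7 CPM in controls and 53.7, 48.0 and 57.4 CPM in mutants. Mutant replicate 2 lay below control replicate 1, so the groups overlapped. Its log2 fold change was 0.25 with a standard error of 0.12. The microRNA gene Mir511 within it had 0 counts in every library.

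Cd163, the receptor for complexes of haptoglobin and hemoglobin, lies on chromosome 6 from 124304656 to 124330527. Control replicates gave 20.5, 24.0 and 13.6 CPM and mutant replicates 24.5, 21.8 and 38.0 CPM. Control replicate 3 was lowest and mutant replicate 3 highest, while the other 4 libraries lay between 20.5 and 24.5 CPM. The log2 fold change of 0.54 (standard error 0.28) was the largest of the 9 and also the least even. It was 0.26 without mutant replicate 3, 0.72 without control replicate 2 and 0.89 with a smooth muscle score as a covariate, which was added after seeing the data. The counts behind these values were 628 to 1271 per library.

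Genes that act after Cd163 on heme and iron were described beside it. Hmox1, which breaks down heme, was read at 13.01, 15.7 and 19.5 CPM in controls and 20.4, 23.1 and 22.5 CPM in mutants. Slc40a1, the iron exporter ferroportin, was read at 28.1, 21.8 and 22.5 CPM against 31.5, 33.7 and 31.1 CPM. Both had every mutant above every control, with log2 fold changes of 0.45 and 0.41. Fth1, the ferritin heavy chain, had every mutant below every control, with -0.16 (-0.21 without mutant replicate 3 and -0.10 without mutant replicate 1). Of the 8 genes of this list, 0 passed the edgeR test, 2 (Hmox1 and Slc40a1) had an unadjusted p under 0.05 and DESeq2 called 0. Hemoglobin and other erythroid transcripts varied widely in both groups, summing to 2789 to 10283 CPM in controls and 1321 to 9083 CPM in mutants, and their part in the result was not tested.

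F13a1 encodes the A subunit of coagulation factor XIII, a transglutaminase that cross-links fibrin and is also made by resident macrophages. It lies on chromosome 13 from 36867178 to 37050244. It was read at 203, 233 and 165 CPM in controls and 190, 184 and 198 CPM in mutants. The mutants lay inside the range of the controls, and F13a1 alone of the 9 had a negative log2 fold change, -0.07 (standard error 0.14). Its sign turned without control replicate 2, to 0.06. The annotation holds antisense genes that overlap it, Gm49144 and Gm30489, which have no row in the count table. The B subunit gene F13b had no counts in any library. Tgm2, a transglutaminase of endothelium and smooth muscle, was read at 484, 900 and 535 CPM in controls and 375, 448 and 388 CPM in mutants. Its log2 fold change was -0.66 with a standard error of 0.25 and an edgeR adjusted p = 0.999, with every mutant below every control. Without control replicate 2 it was -0.33.

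The C1q genes lie on the minus strand of chromosome 4, C1qb from 136880129 to 136886187, C1qc from 136889804 to 136893065 and C1qa from 136895917 to 136898803, over 18675 bases in all. The gap from C1qb to C1qc is 3616 bases and that from C1qc to C1qa 2851 bases. Each has 3 exons in its longest transcript.

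C1qa, the A chain, was read at 151, 126 and 142 CPM in controls and 170, 183 and 177 CPM in mutants. C1qb, the B chain, was read at 226, 197 and 221 CPM against 262, 285 and 288 CPM. C1qc, the C chain, was read at 184, 150 and 161 CPM against 198, 203 and 227 CPM. For each chain every mutant lay above every control, and control replicate 2 was lowest. The means were 140 ± 12.8, 214 ± 15.4 and 165 ± 17.6 CPM (SD, n = 3) in controls and 177 ± 6.88, 278 ± 14.4 and 209 ± 15.2 CPM (SD, n = 3) in mutants for the A, B and C chains. Log2 fold changes were 0.34 (standard error 0.11), 0.38 (standard error 0.11) and 0.34 (standard error 0.12). Without control replicate 2 they were 0.27, 0.32 and 0.28.

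**Figure D1:**
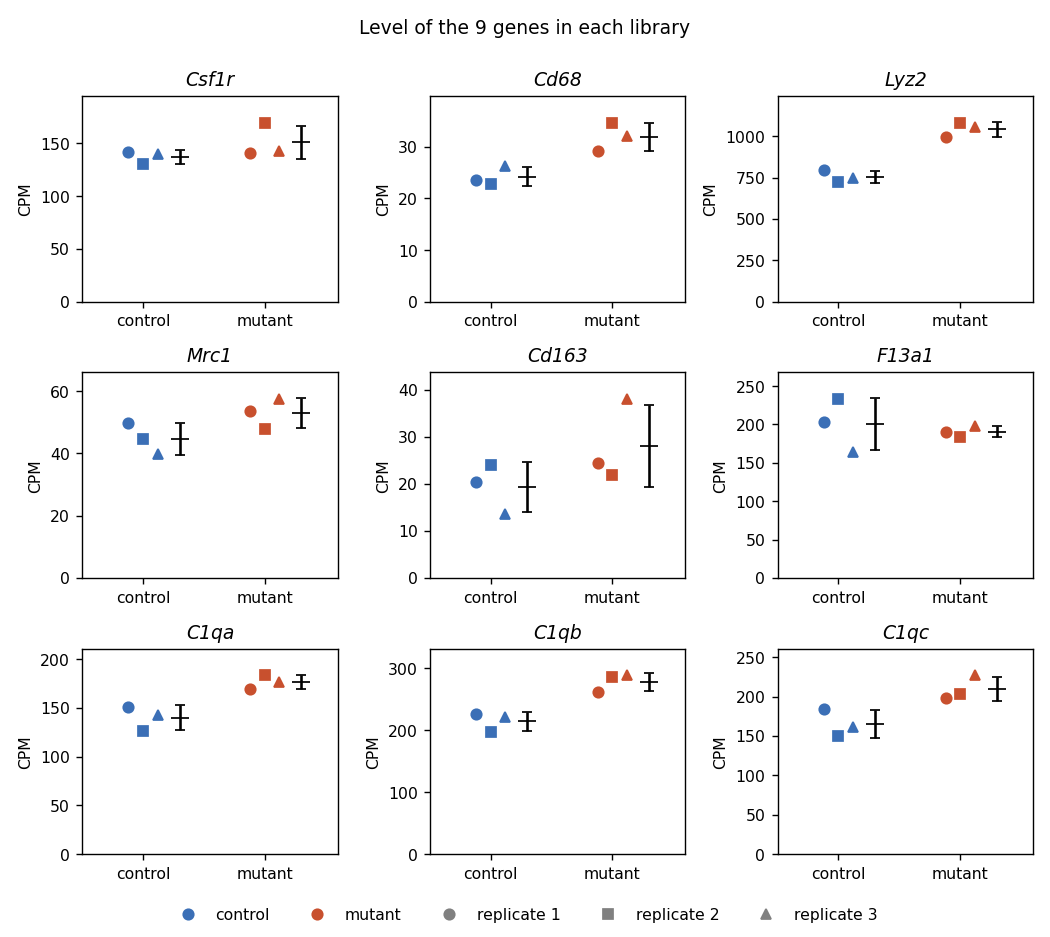
Level of each of the 9 genes in CPM (vertical axes from 0) in the control and mutant libraries, with a symbol for each replicate number and the mean with its SD beside them. Lyz2 sits at 725 to 796 CPM in controls and 993 to 1080 CPM in mutants, while the F13a1 mutants lie inside the control range of 165 to 233 CPM.

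In all, 8 of the 9 genes had a positive log2 fold change, where 52.2% of all genes tested did. In 5 (Cd68, Lyz2, C1qa, C1qb and C1qc) every mutant lay above every control, where 4.04% of all genes tested did, and in 0 every mutant lay below every control, where 4.83% did. Nothing is read from these counts because the same contrast chose the genes. The edgeR test called 0 of the 9 and 0% of all genes, an unadjusted p under 0.05 held for the same 5 of 9 in the higher direction (1.59% of all genes) and for 0 in the lower one (1.86%), and DESeq2 called 1 higher (Lyz2, beside 0.137% of all genes) and 0 lower (0.0326%). The median log2 fold change of the 9 was 0.34, with 0.01 over all genes tested. From the 10th to the 90th percentile, all genes ran from -0.33 to 0.35. In bulk tissue, more cells of a type and more RNA per cell cannot be told apart.

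**Figure D2:**
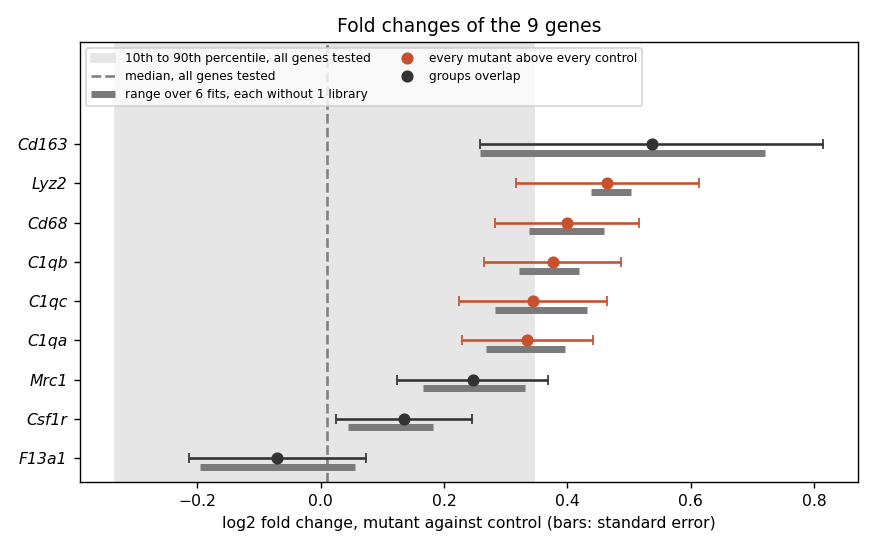
Log2 fold change of each gene, mutants against controls, with its standard error (bars) and its range over the fits that each left out 1 library (thick grey lines), on a band from the 10th to the 90th percentile of all genes tested. Lyz2 moved only from 0.44 to 0.50 over those fits, whereas Cd163 moved from 0.26 to 0.72 and F13a1 from -0.20 to 0.06.

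Together the 9 genes took 0.165% to 0.173% of all fragments in the controls and 0.201% to 0.228% in the mutants. Lyz2 alone made up 43.9% to 45.1% of these fragments in controls and 47.7% to 48.9% in mutants. Within the 9 genes, every mutant thus had a larger share of Lyz2 than every control.

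Per transcript length, the genes kept nearly the same order in every library. Lyz2 was first at a mean of 1606 TPM over the 6 libraries, rank 60 of 22636 genes with a length, and C1qb followed at 532 TPM, rank 276. C1qc and C1qa came next at 365 and 357 TPM, and C1qc was above C1qa in 4 of 6 libraries, so the order of these chains is not settled. F13a1 averaged 117 TPM, Csf1r 72.2 TPM, Cd68 53.6 TPM, Mrc1 21.4 TPM and Cd163 12.6 TPM, an order that held in each library. Over the 6 libraries the ranges of Csf1r and Cd68 overlapped, as did those of Mrc1 and Cd163. With the summed length of all exons in place of the longest transcript, C1qa stood above C1qc, at 467 and 297 TPM.

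Ratios within a library do not depend on its depth. C1qa over C1qb was between 0.614 and 0.671 in fragments over the 6 libraries, C1qc over C1qb between 0.714 and 0.816 and C1qa over C1qc between 0.781 and 0.901. On the log2 scale these ratios differed between mutants and controls by -0.04, -0.03 and -0.01, less than their ranges of 0.13, 0.19 and 0.21 over the libraries. Per length the medians were 0.674, 0.686 and 0.982, which holds for the longest transcripts, since summed exon lengths set C1qa above C1qc as given before.

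Each gene was also set against Csf1r in the same library. The log2 ratio of Lyz2 to Csf1r was 2.42 to 2.48 in controls and 2.67 to 2.89 in mutants. That of Cd68 was -2.60 to -2.42 against -2.29 to -2.16 (mutant replicate 2 lowest), that of C1qa -0.05 to 0.09 against 0.11 to 0.31, and that of C1qb 0.60 to 0.67 against 0.75 to 1.02. In these 4 ratios every mutant lay above every control. The ratios of C1qc, Mrc1, Cd163 and F13a1 to Csf1r overlapped between groups, although the mean difference for C1qc, 0.22, was as large as that for C1qa, 0.21, and that for Cd163, 0.40, was larger. Set against Ptprc in place of Csf1r, the groups overlapped for all 9 genes, with Lyz2 at 5.29 to 5.59 in controls and 5.56 to 5.97 in mutants. The ratios to Csf1r share its count, and the contrast that chose the genes enters them, so no test was made.

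**Figure D3:**
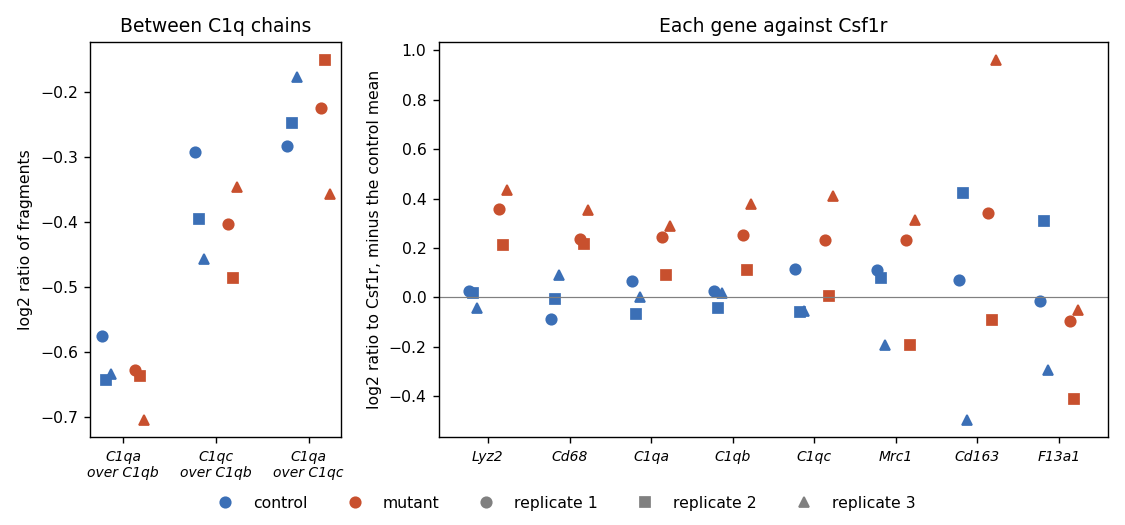
Log2 ratios of fragments per library, between C1q chains (left) and of each gene to Csf1r with the control mean set to 0 (right), with control and mutant points side by side and a symbol for each replicate number. C1q chain ratios span 0.13 to 0.21 with the groups mixed, while Lyz2, Cd68, C1qa and C1qb have all mutants above all controls on the right.

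Across the 6 libraries, which share group, depth and tissue make-up, Pearson correlations of log2 CPM described how the genes varied together. Over the 36 pairs the median r was 0.68, from -0.46 to 0.98. The C1q chains ran together at 0.94 to 0.98, Lyz2 with C1qb at 0.98 and Cd68 with C1qb at 0.95. Mrc1 and Cd163, both scavenger receptors, had r = 0.87. F13a1 stood apart with a median r of -0.29 against the other 8, and its highest was 0.53 with Cd163.

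After each group's mean was subtracted, the median r over the pairs was 0.26. C1qa with C1qb kept 0.93, Cd163 with F13a1 had 0.83, Mrc1 with Cd163 0.79, and Cd68 with F13a1 -0.69. C1qa with C1qc had 0.77, Cd68 with C1qb 0.67, Cd68 with Lyz2 0.51 and Cd68 with C1qc 0.12. With 6 libraries these values are a description only.

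**Figure D4:**
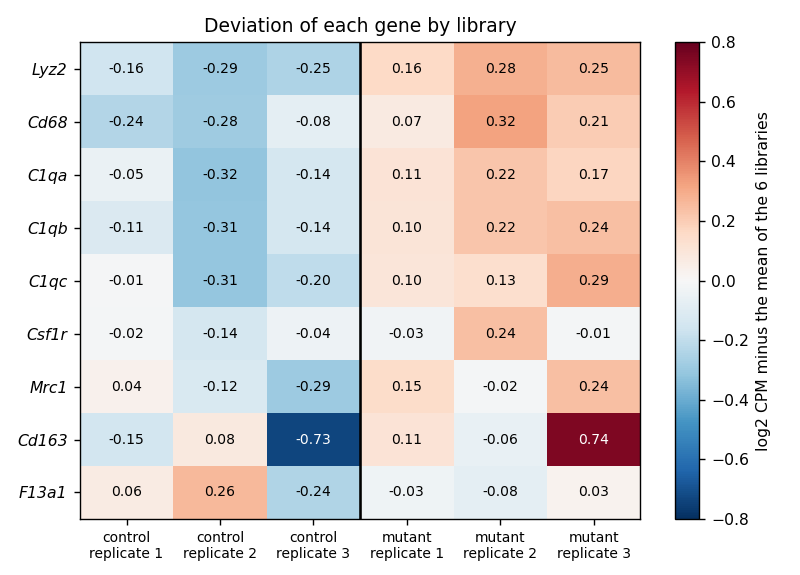
Log2 CPM of each gene minus its mean over the 6 libraries, with genes as rows, libraries as columns and a line between controls and mutants. Lyz2, Cd68 and the C1q genes are below 0 in all controls and above 0 in all mutants, whereas Cd163 runs from -0.73 in control replicate 3 to 0.74 in mutant replicate 3 and F13a1 is highest, at 0.26, in control replicate 2.

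C1q is one part of the classical pathway, and its partners were measured as well. The proteases C1r and C1s bind C1q, and C1ra was read at 61.7, 71.7 and 43.5 CPM in controls and 59.9, 46.2 and 70.9 CPM in mutants, with C1s at 75.6, 110 and 49.9 CPM against 70.7, 60.7 and 90.5 CPM. Both overlapped between groups, and the log2 fold changes were 0.00 for C1ra, with a standard error of 0.22, and -0.09 for C1s, with one of 0.29. C4b, cleaved by C1s, had 0.31 (standard error 0.23), C3, the step that follows, -0.05 (standard error 0.44) and the inhibitor Serping1 -0.02 (standard error 0.26). C2 and C3 were highest in control replicate 2, at 69.7 and 998 CPM, and without it their fold changes were 1.22 and 0.61.

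Of 13 genes of this list, 4 had positive and 9 negative fold changes, 0 passed the edgeR test, none had an unadjusted p under 0.05 and DESeq2 called 0. No gene of the list had its groups apart, and the median log2 fold change was -0.04, which was -0.16 when control replicate 3 was dropped and 0.17 when control replicate 2 was. Per length, C1qb fragments exceeded those of C1ra in every library, with C1ra at 0.0591 to 0.133 of C1qb, and Serping1 at 1.06 to 2.62 of C1qb.

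Other resident macrophage genes were less even. Of 17 tested, 10 had positive and 7 negative fold changes with a median of 0.17, and 0 passed the edgeR test, while 2 (Vsig4 and Pf4) had an unadjusted p under 0.05 and DESeq2 called 1 (Vsig4). Vsig4, a receptor for complement C3 fragments on resident macrophages, was read at 9.71, 7.98 and 8.38 CPM in controls and 14.6, 22.6 and 33.4 CPM in mutants. Its log2 fold change was 1.44 with a standard error of 0.29, an edgeR adjusted p = 0.999 and a DESeq2 adjusted p = 0.00709, and it ran from 1.10 to 1.69 when single libraries were left out. Pf4, a chemokine of platelets and of some resident macrophages, was read at 60.8, 59.3 and 61.5 CPM against 71.2, 83.9 and 100.2 CPM, with every mutant above every control.

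Timd4, a phosphatidylserine receptor of long-lived resident macrophages, was read at 7.60, 8.10 and 5.23 CPM in controls and 13.6, 7.25 and 12.6 CPM in mutants. Folr2, a folate receptor, was read at 36.2, 35.2 and 24.6 CPM against 52.0, 28.0 and 44.7 CPM. In both, mutant replicate 2 lay within the control range. Emr1, Lyve1 and Cbr2 had log2 fold changes of 0.17, -0.09 and -0.23 with overlapping groups. Leaving out control replicate 2 gave 0.07, 0.18 and 0.01. Gas6, a bridging molecule for dying cells, had every mutant below every control at -0.26, and its receptor Mertk had -0.57 with overlapping groups. Without control replicate 2 these were -0.15 and -0.10.

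Monocyte genes gave no separation. Of 12 tested, 4 had positive and 8 negative fold changes with a median of -0.18 (-0.40 without mutant replicate 2 and -0.02 without mutant replicate 1), 0 passed in edgeR, none had an unadjusted p under 0.05 and DESeq2 called 0. Ccr2, the receptor that draws monocytes out of the marrow, was read at 10.5, 6.89 and 6.47 CPM in controls and 8.48, 9.85 and 4.58 CPM in mutants. Ly6c2, of classical monocytes, had 8 to 110 counts per library. The fitted difference for it was -0.90 on the log2 scale, with a standard error of 0.83. Leaving out control replicate 3, the library with 110 counts, turned this to 0.10, and leaving out mutant replicate 2 gave -1.79.

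Genes of myeloid cells at large had a median log2 fold change of 0.39 over 14 (0.23 without mutant replicate 2), 11 of them positive. Of these, 3 (Fcgr1, Fcgr3 and Fcer1g, a pair of Fc receptors and their signaling chain) had every mutant above every control and an unadjusted p under 0.05, while 0 passed the edgeR test and DESeq2 called 0. Fcer1g was read at 32.9, 27.5 and 29.2 CPM in controls and 39.2, 47.3 and 41.3 CPM in mutants. Among 10 genes of leukocytes at large, the tetraspanin Cd53 alone had its groups apart (log2 fold change 0.47), 0 passed the edgeR test, 1 (Cd53) had an unadjusted p under 0.05 and DESeq2 called 0. Ptprc, the leukocyte antigen CD45, was read at 18.3, 15.1 and 19.1 CPM in controls and 15.9, 22.9 and 17.8 CPM in mutants, with a log2 fold change of 0.11 (standard error 0.18).

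Marker lists of other cells were summed in each library, and no gene of them passed the edgeR test, while the sums of the mast cell, T and NK cell and lymphatic endothelial lists did not overlap between groups. Mast cell markers summed to 46.7 to 91.4 CPM in controls and 104 to 139 CPM in mutants, and 6 of 7 had positive fold changes. T and NK cell markers summed to 4.29 to 9.54 CPM against 10.4 to 18.1 CPM, 9 of 9 positive, with a median log2 fold change of 1.05 that was 0.58 without mutant replicate 2 and 0.69 without control replicate 2. B cell markers were positive in 6 of 6, with overlapping sums of 4.21 to 16.9 CPM and 7.91 to 39.4 CPM. Igj alone of them had its groups apart, at 0.217 to 0.578 CPM in controls and 3.16 to 5.91 CPM in mutants. Its log2 fold change was 3.36, with an edgeR adjusted p = 0.999 and a DESeq2 adjusted p = 1.02e-08. Lymphatic endothelial markers summed to 367 to 607 CPM in controls and 209 to 340 CPM in mutants, and smooth muscle markers were negative in 7 of 8 with a median of -0.87, -0.43 without control replicate 2 and -0.57 without mutant replicate 1, and overlapping sums. The lymphatic median of -0.50 was -0.24 without control replicate 2. Neutrophil markers overlapped at 5.34 to 20.9 and 5.07 to 24.3 CPM, and platelet markers at 19.4 to 30.9 and 13.04 to 76.7 CPM. Stress genes were positive in 10 of 10 with a median of 0.23 (0.39 without control replicate 1), and summed to 847 to 1228 CPM in controls and 1130 to 1400 CPM in mutants. The part of these lists in the values of the 9 genes was not tested.

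The remaining lists overlapped in their sums, and their median log2 fold changes were -0.13 for dendritic cells, -0.14 for endothelium, -0.08 for interstitial cells, 0.25 for cardiac muscle, 0.22 for erythroid cells, 0.84 for platelets, 0.70 for neutrophils and -0.43 for adipocytes. Most of these medians rest on single libraries. The dendritic median was 0.51 once control replicate 1 was left out and -0.43 once control replicate 3 was. Those of endothelium, cardiac muscle and adipocytes were -0.03, -0.11 and 0.15 when control replicate 2 was dropped. With control replicate 1 dropped, endothelium had -0.23 and cardiac muscle 0.54. The interstitial median was 0.03 with mutant replicate 1 dropped and -0.18 with mutant replicate 2 dropped, and the adipocyte one was lowest, at -1.003, when mutant replicate 3 was. Without mutant replicate 2 they were lowest for erythroid cells, platelets and neutrophils, at -0.43, 0.24 and -0.08. They were highest without control replicate 1 for erythroid cells and neutrophils, at 0.91 and 1.03, and without mutant replicate 1 for platelets, at 1.28. Over all 212 tested genes of the lists outside the 9, the edgeR test called 0, an unadjusted p under 0.05 held for 22 (17 higher and 5 lower in mutants), and DESeq2 called 2 (Igj and Vsig4).

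**Figure D5:**
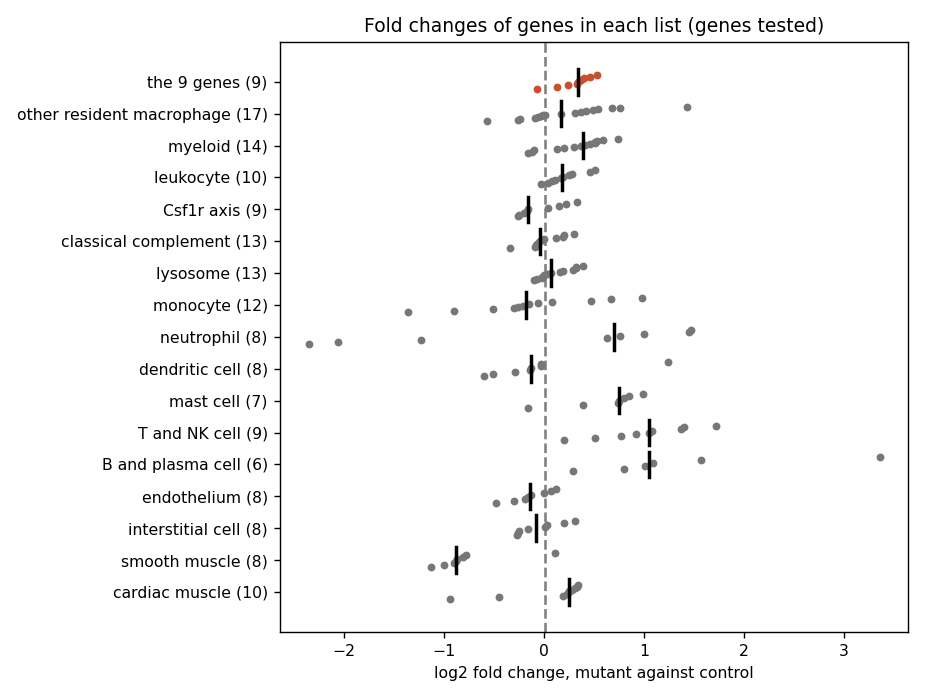
Log2 fold change, mutants against controls, of each gene tested (points) in the 9 genes and the lists set beside them, with each list's median as a black bar, its number of genes in parentheses and the median of all genes as a dashed line. The 9 genes center on 0.34, the classical complement list on -0.04 (-0.16 to 0.17 when single libraries were left out), monocyte genes on -0.18 (-0.40 to -0.02) and smooth muscle genes on -0.87 (-1.09 to -0.43).

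Genes outside the 9 were ranked by how closely their log2 CPM followed the mean of the standardized values of the 9 over the 6 libraries, among 13684 genes with a mean of at least 1 CPM. Most alike were Sarnp (r = 0.99), Casp1 (0.98), Lilrb3 (0.98), Cd48 (0.98) and Clec4b1 (0.97). Casp1 encodes the caspase of inflammasomes, and Lilrb3, Cd48 and Clec4b1 encode surface receptors of leukocytes. The mean of the 9 was negative in every control and positive in every mutant, so this ranking favours genes higher in mutants. Nothing is read from the kinds of gene it found. Sarnp was nearly flat, at 74.7 to 76.8 CPM in controls and 77.9 to 79.4 CPM in mutants, a log2 fold change of 0.06. With deviations from the group means the 5 leading genes were others (5730469M10Rik, Klhl28, Tmem29, Ifi30 and Rhobtb3), with 0 shared.

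In the 4 libraries with Y-linked transcripts alone, 2 controls and 2 mutants, the median log2 fold change of the 9 genes was 0.43. There 7 genes had every mutant above every control, but smaller groups come apart more easily. The share of all genes is not given for these libraries, so nothing is read from the 7. With the presence of Y-linked transcripts as a block over all 6 libraries the median was 0.35. Both were chosen after seeing the data.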

How the data were processed

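Total RNA of mouse aortic valve was sequenced by the authors from TruSeq libraries, which do not mark strand, of 3 control and 3 mutant samples. Per the labels and the submitters' processing notes, reads were aligned to mm10 with TopHat2 2.0.13 and Bowtie2 2.2.1 and quantified with Cuffdiff 2.1.1. The paper names another version of Bowtie2. The authors deposited estimated counts, that is fragments that Cuffdiff assigned to each gene, without scaling for library size. Fragments shared by similar genes could be split between them, which gives values that are not whole, 1.66% to 1.87% per library, and these were rounded. Columns were matched to samples by their descriptions.

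In edgeR 4.0.16 (R 4.3.3), the 15354 of 23107 genes that reached a count of 10 in 3 or more libraries were normalized by TMM and compared with the two-sided quasi-likelihood F test without covariates, with Benjamini-Hochberg adjustment over all of them at 0.05. The biological coefficient of variation was 0.278. CPM values use TMM library sizes. Of the 23107 genes, 22636 were matched by symbol to the GENCODE annotation of GRCm38 for positions and lengths, and TPM values were computed here from the longest transcript. Start-site sequences came from RefSeq.

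The 9 genes and all lists were chosen with earlier results of these data known, and the mutant-control contrast of the 9 has no test. Named genes are the 9, all genes of the Csf1r and classical complement lists, chosen resident macrophage, monocyte and leukocyte genes, up to 2 genes of each other list by size of change, and the 5 most alike, not all of which are reported. Npc2, Psap, Hmox1, Slc40a1, Fth1, Pf4, Gas6, Mertk, Fcgr1, Fcgr3, Fcer1g, Cd53, Lamp1, Ctsd, Grn and Lyz1 were added after their values were seen. Alternatives were DESeq2 1.42.0, limma-voom 3.58.1 with and without sample weights, other normalizations and filters, a replicate block, a cardiac muscle score, exon-union lengths and leaving out each library. The pipeline was tested on simulated data.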

Additional observations from a re-analysis of the deposited data

How the results depend on the processing

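The median log2 fold change of the 9 genes was 0.34, and under other tests, normalizations, filters and a cardiac muscle covariate it ran from 0.33 to 0.36. It was 0.28 to 0.40 when single libraries were left out, lowest without control replicate 2, and 0.34 with a smooth muscle score as a covariate, added after seeing the data. In the 4 libraries with Y-linked transcripts alone, also added after seeing the data, it was 0.43. The number of the 9 with every mutant above every control was 5 under each normalization and filter tried and 5 to 7 when single libraries were left out. Leaving out a library makes it easier for the groups to come apart, and the share of all genes is not given for those fits. The range is therefore a description only. Of 162 values of single genes among the 9 under an alternative, 3 differed in sign from the reported one, all of F13a1, up to 0.07 with the smooth muscle score. Over all 89 named genes 115 of 1585 values differed in sign from the reported one and 22 moved by more than the spread between replicates.

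Genes with an adjusted p under 0.05 numbered 0 in every edgeR and limma-voom fit, including those without one library, 26 in DESeq2, and 529 at an unadjusted p. With deviations from the group means in place of log2 CPM, 0 of the 5 most similar genes were shared. The labels number the replicates alike in both groups. Same-numbered libraries deviated together with r = 0.29, 0.08 and 0.03 over genes, and control replicate 2 correlated best with mutant replicate 3 (0.20), so they were not treated as pairs. With the replicate block the median of the 9 was 0.35 and 0 genes were called, with 363 higher and 451 lower at an unadjusted p.

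Each of the 9 genes had at least 628 counts in each library. The mice behind each library, their sex and the amount of adjoining muscle taken with the valve are not given.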
